A study of Mus musculus with 12 samples.

Results

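The heat shock chaperones of the cytosol and the mitochondrial matrix were followed in thioglycolate-elicited peritoneal macrophages by RNA sequencing. The set holds 10 genes named by symbol, and all 10 were among the 12339 genes of the deposited table. Mice of 2 genotypes, wild type (WT) and meKO, received AAV8PCSK9 at 8 weeks of age, a viral vector meant to take the LDL receptor off hepatocytes. This treatment was common to all groups, the chow controls included. The mice then stayed on chow or were given a high-fat Western diet (HFD) for 4 weeks, a combination meant to raise blood cholesterol in the fed animals, before macrophages were drawn into the peritoneum and collected by lavage. The 4 groups (WT on chow, WT on HFD, meKO on chow and meKO on HFD) had 3 libraries each. The name meKO is read from the title of the study as loss of protein kinase C epsilon (gene Prkce) in myeloid cells; the Cre line that drives the deletion is not given in the sources used here. The labels do not say whether a library came from 1 mouse or from several, so the p-values below measure the spread between these libraries.

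Heat shock proteins keep other proteins folded. HSP70 proteins hold short unfolded stretches and cycle through ATP with the help of J proteins, which deliver the client, and of nucleotide exchange factors such as HSP110. HSP90 takes over clients that are nearly folded, among them kinases and steroid receptors. HSP60 and its lid HSP10 form a folding chamber in mitochondria. HSP70 and HSP90 each have a constitutive form and one that heat shock factor 1 (HSF1) induces through heat shock elements, which are arrays of the letters GAA and TTC facing each other. In macrophages the inducible forms are known to respond to oxidants and other stress.

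Promoter sequence is shown for 3 members: Hspa1a as the inducible HSP70 gene called on the diet, Hspe1 for the longest run of heat shock element letters, and Dnaja1 for a J protein called on the diet. The windows cover 250 bases before to 50 bases after the annotated start (RefSeq, GRCm38.p6), and 7 of the 10 genes had one. The heat shock element was searched on both strands as its 2-unit forms GAANNTTC and TTCNNGAA, each of which is its own reverse complement. The 3-unit forms are GAANNTTC followed by NNGAA and TTCNNGAA followed by NNTTC; they are reverse complements of each other and contain the 2-unit forms. Capitals mark the matches, and each stretch reads in the direction of its gene. The first lies 150 to 51 bases before the start of Hspa1a, at chr17:34972207-34972306 (minus strand). The second lies 95 to 66 bases before the start of Hspe1, at chr1:55088053-55088082 (plus strand), in the region that Hspe1 shares head to head with Hspd1. It overlaps 1 exon and 1 untranslated region of the GENCODE annotation. The third lies 135 to 106 bases before the start of Dnaja1, at chr4:40722333-40722362 (plus strand), and overlaps 2 exons of that annotation.
Hspa1a: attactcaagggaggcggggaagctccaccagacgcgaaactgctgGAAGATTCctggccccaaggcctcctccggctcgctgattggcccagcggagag
Hspe1: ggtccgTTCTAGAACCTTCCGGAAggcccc
Dnaja1: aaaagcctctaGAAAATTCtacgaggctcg

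A 2-unit match before the start was present in 6 of the 7 members with a window (Hspa1a, Hspa1b, Hsph1, Dnaja1, Hspd1 and Hspe1). The share was 12.4% of 9553 measured genes and 12.8% of all 32851 windows. A 3-unit match before the start was found in 2 members, Hspd1 and Hspe1, which share the same bases, against 0.461% of measured genes. These bases lie inside the annotated span of Hspd1 (chr1:55077833-55088243). For Hspd1 they therefore precede the start used in its window but not the outer end of the gene. Dnajb1 had neither form in its window. The windows of Hspa1a and Hspa1b differed at 4 of 300 bases, 3 of them before the start and 0 within the printed stretch, so both genes hold the same match 104 bases before the start. A match in letters is a description of the window and not a measured binding site.

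Before the comparisons, the libraries were checked against their labels. Total counts ran from 25845000 to 37282800 (rounded to 6 digits). Prkce stood at 3.08 ± 1.03 CPM (counts scaled to library size with TMM factors) over the WT libraries, against 1.37 ± 0.347 CPM over those of meKO (SD, n = 6; exact two-sided permutation test, p = 0.00216). In the fit across all genes Prkce did not pass in meKO against WT. Its log2 fold change was -1.47 ± 0.31 on chow (edgeR adjusted p = 0.0794), -0.80 ± 0.31 on HFD (0.989) and -1.13 ± 0.22 averaged over diets (0.0588). These values rest on 25 to 151 counts per library. The 3 WT chow libraries had 4.27, 4.44 and 2.35 CPM. On chow the alternatives gave -1.73 to -0.82 and passed in 3 of 24 settings. All 10 genes of a macrophage list were measured, with Cd68 between 2538 and 3658 CPM and Adgre1 between 513 and 697 CPM. Of these 10, Adgre1, Itgam, Csf1r and Mertk were called lower and Fcgr1 and Cd14 higher on HFD averaged over genotypes. Among all genes 15.3% were called lower and 14.9% higher in this contrast. Lyz2, of the same list, ran from 30482 to 53835 CPM in WT libraries. In meKO libraries it ran from 69.3 CPM, in meKO chow replicate 2, to 21309 CPM. Its genotype difference averaged over diets did not pass (-1.22 ± 0.88, edgeR adjusted p = 0.468). The list summed to 36795 to 60137 CPM in WT libraries and 6409 to 28077 CPM in meKO libraries. Lyz2 made up most of this sum outside meKO chow replicate 2, so the sum mainly follows this 1 gene. Markers of other cells moved with the diet as well. All 9 measured B cell genes were called lower on HFD averaged over genotypes, against 15.3% of all genes. Their summed level was 218 to 274 CPM on chow and 125 to 150 on HFD in WT, and 153 to 271 and 139 to 229 in meKO. Of 12 measured mesothelial and fibroblast genes 6 were called higher (Krt19, Krt8, Wt1, Upk1b, Dcn and Pdgfra) and 0 lower on HFD, against 14.9% and 15.3% of all genes. Their sum was 53.2 to 93.8 CPM on chow and 97.5 to 143 on HFD in WT, and 53.8 to 98.2 and 115 to 148 in meKO. Krt19 reached 10.8 CPM, and Msln stayed under 1 CPM in every library. By genotype, averaged over diets, 3 of 7 measured neutrophil genes (S100a9, Retnlg and Cxcr2) were called higher in meKO and 0 lower, against 0.17% of all genes called. They reached 4.69, 33.6 and 1.01 CPM. S100a9 was also called higher in meKO on chow and on HFD, where 0.081% of all genes were called in each. The part of these cells in the results below was not tested, and in bulk RNA fewer cells of a type and less RNA per cell cannot be told apart. WT chow replicates 1 and 2 stood apart along transcript length. How far a gene lay above or below its mean in a library followed the length of its transcript, with a Spearman's rho across genes of 0.64 and 0.676 in these 2. It was -0.195 to 0.14 in the other chow libraries and negative in every HFD library, from -0.467 to -0.122. The trend with length thus also differed between the diets. Results are therefore given with and without WT chow replicates 1 and 2.

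Levels per kilobase of transcript were highest for the constitutive cytosolic genes and lowest for the inducible HSP70 genes. Hsp90ab1, the constitutive HSP90, led with 346 ± 24.2 CPM per kb (SD over 12 libraries), and Hspa8, the constitutive HSP70, followed with 208 ± 33.5 CPM per kb. Each stood above the next gene in the order in all 12 libraries. The mitochondrial pair came after them, with Hspe1 (HSP10) at 57.8 ± 12.6 and Hspd1 (HSP60) at 43.5 ± 5.45 CPM per kb, and Hspe1 was above Hspd1 in 11 of 12 libraries. Hsp90aa1, the inducible HSP90, had 37.2 ± 10 CPM per kb and lay below Hspd1 in 9 of 12 libraries, so these neighbours did not separate beyond their spread. The J proteins Dnaja1 and Dnajb1 had 17.6 ± 3.79 and 12.7 ± 1.6 CPM per kb. Hsph1, the HSP110 exchange factor, had 10.6 ± 2.05 CPM per kb and overlapped in range with Dnajb1 above it and with Hspa1b below it. The inducible HSP70 genes were lowest, with Hspa1b at 8.47 ± 5.33 and Hspa1a at 3.56 ± 1.87 CPM per kb. They were also the most variable members. The highest library had 17.5 times the lowest for Hspa1b and 5.29 times for Hspa1a, against 1.29 times for Hsp90ab1. Several members share sequence with other annotated genes, as given below, so this order depends on how such reads were counted. Together the 10 genes made up 1513 to 2144 CPM of a library.

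**Figure D1:**
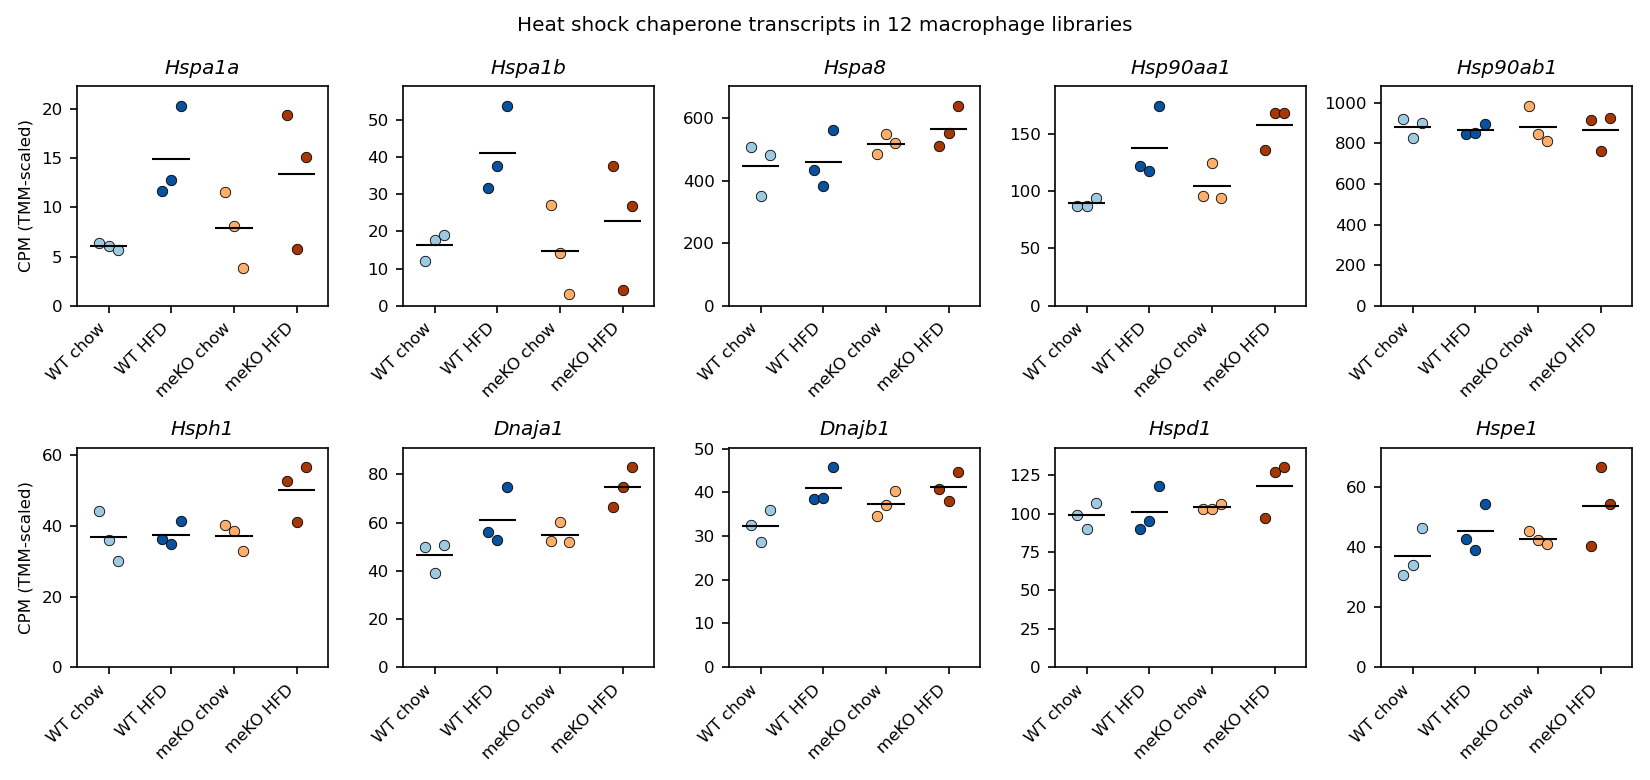
TMM-scaled CPM (y axis, starting at 0) of each chaperone gene in the 12 libraries; points are libraries, bars are means of 3, and colours are the 4 groups. Hspa1a, Hspa1b, Hsp90aa1, Dnaja1 and Dnajb1 have all WT HFD points above all WT chow points, and Hspa1b falls to 3.08 and 4.23 CPM in 1 library of each meKO group.

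The diet comparison asked what the high-fat diet changed in macrophage chaperone transcripts. Averaged over both genotypes, 4 of the 10 genes rose on HFD and 0 fell: the inducible HSP70 gene Hspa1a, the inducible HSP90 gene Hsp90aa1 and the J proteins Dnaja1 and Dnajb1. The rises ran from 1.18-fold (Dnajb1) to 2.06-fold (Hspa1a). Among all genes 14.9% were called higher and 15.3% lower in this contrast (edgeR quasi-likelihood F test, Benjamini-Hochberg adjusted p under 0.05). The median log2 fold change of the 10 genes was 0.28, against -0.03 over all genes. With a correction for transcript length and GC content the 4 calls held, where 23.5% of all genes were called. Without WT chow replicates 1 and 2 the count was 0, while 1.64% of all genes were called. The log2 fold changes were then 1.08 for Hspa1a (1.04 with all libraries), 0.57 for Hsp90aa1 (0.61), 0.36 for Dnaja1 (0.42) and 0.16 for Dnajb1 (0.24).

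Hsp90aa1 (Entrez gene 15519, chr12:110691036-110696395, GRCm38.p6) is the HSP90 that stress induces. It had 86.6, 86.9 and 94.0 CPM in WT chow and 122, 117 and 174 in WT HFD. The meKO libraries had 95.2, 124 and 93.5 CPM on chow and 136, 168 and 168 on HFD. Every HFD library stood above every chow library of its own genotype, and the highest chow library, in meKO, reached into the range of WT HFD. The log2 fold change was 0.63 ± 0.16 (SE) for WT (edgeR adjusted p = 0.0217), 0.59 ± 0.16 for meKO (0.154) and 0.61 ± 0.11 averaged over genotypes (0.00501). The averaged rise passed in 22 of 23 alternative settings, with an adjusted p up to 0.0704, the value without WT chow replicates 1 and 2. Its partner Hsp90ab1 (Entrez gene 15516, chr17:45567778-45573261), the constitutive HSP90, had 919, 824 and 900 CPM in WT chow and 848, 850 and 896 in WT HFD. In meKO it had 984, 846 and 810 CPM on chow and 915, 761 and 925 on HFD. All 4 groups overlapped, and the averaged log2 fold change was -0.02 with a 95% interval from -0.19 to 0.15 (edgeR adjusted p = 0.84).

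The ratio of Hsp90aa1 to Hsp90ab1 counts within each library showed the unequal change directly. It was 0.0943, 0.105 and 0.104 in WT chow and 0.144, 0.137 and 0.194 in WT HFD. In meKO it was 0.0968, 0.147 and 0.115 on chow and 0.148, 0.221 and 0.182 on HFD. The HFD ratios lay above the chow ratios within each genotype, in meKO by a narrow margin. The ratio does not depend on library scaling. Of the 50-base stretches of the Hsp90aa1 transcript 58.5% also occur in transcripts of other genes in the annotation, against 4.5% for Hsp90ab1, so the level of Hsp90aa1 depends on how such reads were counted.

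Hspa1a (Entrez gene 193740, chr17:34969359-34972156) and Hspa1b (Entrez gene 15511, chr17:34956429-34959238) are single-exon genes that encode the stress-induced cytosolic HSP70. Hspa1a had 6.34, 6.04 and 5.69 CPM in WT chow and 11.7, 12.8 and 20.3 in WT HFD. In meKO it had 11.6, 8.11 and 3.84 CPM on chow and 19.4, 5.72 and 15.1 on HFD. The WT groups did not overlap and the meKO groups did, through meKO HFD replicate 2 at 5.72 CPM. The log2 fold change on HFD was 1.31 ± 0.43 for WT (edgeR adjusted p = 0.0495), 0.77 ± 0.43 for meKO (0.375) and 1.04 ± 0.30 averaged (0.0256). The call in WT held in 12 of 23 alternatives (adjusted p from 0.00663 to 0.587) and was lost when any 1 of the 6 WT libraries, meKO chow replicate 2 or meKO HFD replicate 3 was left out. The averaged call held in 18 of 22, and was lost without WT chow replicate 1 (edgeR adjusted p = 0.0574), WT chow replicate 2 (0.0662), both of these (0.214) or WT HFD replicate 3 (0.0656).

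Hspa1b had 12.1, 17.7 and 19.1 CPM in WT chow and 31.7, 37.6 and 53.8 in WT HFD. The meKO libraries had 27.0, 14.3 and 3.08 CPM on chow and 37.5, 4.23 and 26.8 on HFD. As for Hspa1a, WT HFD stood wholly above WT chow, and the meKO groups overlapped across a wide range. Its log2 fold change was 1.33 ± 0.80 for WT (edgeR adjusted p = 0.246), 0.62 ± 0.80 for meKO (0.718) and 0.98 ± 0.57 averaged (0.214). The 2 lowest libraries, meKO chow replicate 3 and meKO HFD replicate 2, had 89 and 111 counts against 428 or more in the other 10. Without these 2, a step chosen after their values were seen, the averaged call extended to Hspa1b and covered Hsp90aa1, Hspa1a and Hspa1b (3 genes), while Dnaja1 and Dnajb1 no longer passed and 5.19% of all genes were called.

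The same 2 libraries had the lowest ratio of Hspa1b to Hspa1a counts. The ratio was 0.802 in meKO chow replicate 3 and 0.74 in meKO HFD replicate 2, where Hspa1b fell below Hspa1a. In the other 10 libraries Hspa1b had more counts than Hspa1a, with ratios from 1.76 to 3.36. The transcripts of the 2 genes share much of their sequence: 58.8% of the 50-base stretches of Hspa1a occur in Hspa1b, and 62.3% of those of Hspa1b in Hspa1a. How shared reads were assigned is not given in the sources used here, so the split between the copies is uncertain and their sum is the firmer quantity. Summed into a single row, the HSP70 pair had a log2 fold change of 1.33 ± 0.67 in WT (edgeR adjusted p = 0.17) and 1 ± 0.47 averaged (0.132), so the call for Hspa1a did not carry over to the sum. Of 29 measured genes within 250 kb of the pair, meKO chow replicate 3 was the lowest library for 2 and meKO HFD replicate 2 for 5, against 5.58% and 19.4% of all genes. WT chow replicate 1 and WT HFD replicate 1 were also each the lowest for 5 of the 29.

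**Figure D2:**
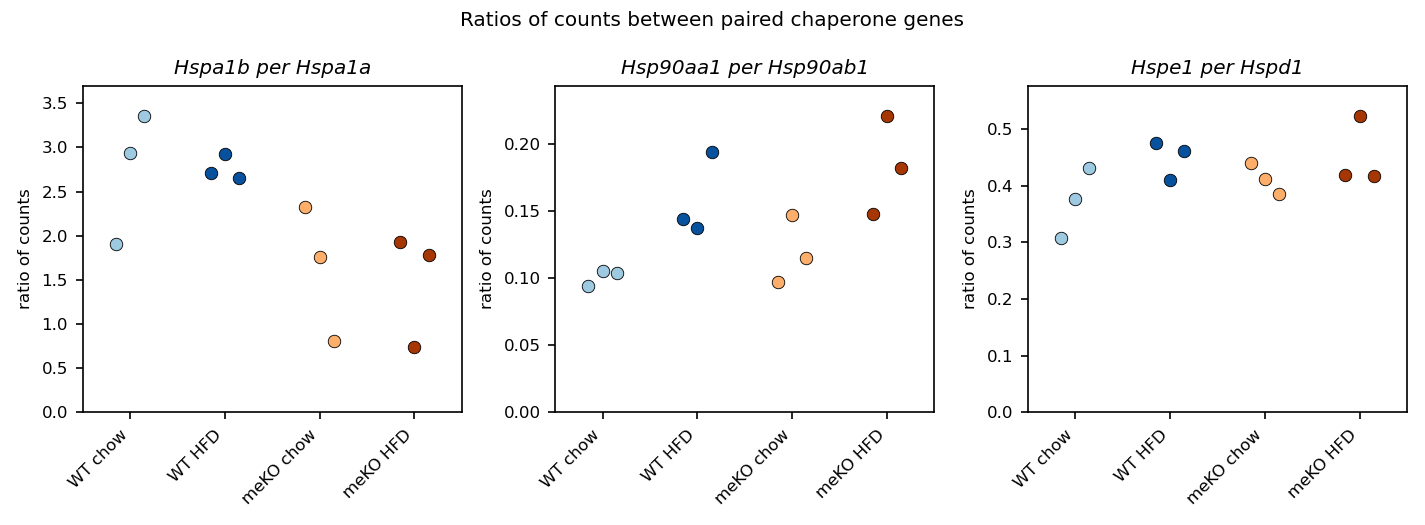
Ratio of counts (y axis, starting at 0) within each of the 12 libraries for 3 pairs of chaperone genes, by group; each point is a library. Hspa1b per Hspa1a drops to 0.802 and 0.74 in 1 library of each meKO group, Hsp90aa1 per Hsp90ab1 is higher on HFD within each genotype, and Hspe1 per Hspd1 ranges from 0.308 to 0.524.

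Hspa8 (Entrez gene 15481, chr9:40801276-40805202) encodes the constitutive HSP70 that also serves clathrin uncoating and chaperone-mediated autophagy. It had 510, 351 and 483 CPM in WT chow and 434, 382 and 563 in WT HFD. The meKO libraries had 486, 549 and 522 CPM on chow and 511, 552 and 640 on HFD. The diet groups overlapped in both genotypes, and the averaged log2 fold change on HFD was 0.08 with a 95% interval from -0.16 to 0.33 (edgeR adjusted p = 0.602). Of its 50-base stretches 73.2% also occur in other annotated genes, 10 of which share at least 1% of them, so its level is uncertain. Hsph1 (Entrez gene 15505, chr5:149616843-149636498), the HSP110 that exchanges nucleotide on HSP70, shares none. It had 44.3, 36.0 and 30.1 CPM in WT chow and 36.2, 34.8 and 41.3 in WT HFD. In meKO it had 40.2, 38.7 and 33.0 CPM on chow and 52.8, 41.1 and 56.6 on HFD. The groups overlapped in WT and did not in meKO. The log2 fold change was 0.02 ± 0.16 for WT (edgeR adjusted p = 0.923) and 0.43 ± 0.16 for meKO (0.253), and the difference between these 2, 0.40 ± 0.22, did not pass (adjusted p = 0.797).

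Both J proteins of the set rose in the averaged contrast. Dnaja1 (Entrez gene 15502, chr4:40722468-40734965), a class I J protein that delivers clients to HSP70, had 49.9, 39.2 and 50.8 CPM in WT chow and 56.2, 52.6 and 74.6 in WT HFD. In meKO it had 52.4, 60.1 and 52.0 CPM on chow and 66.4, 74.8 and 82.9 on HFD. The diet groups did not overlap in either genotype. Its log2 fold change was 0.39 ± 0.15 for WT (edgeR adjusted p = 0.0717), 0.45 ± 0.15 for meKO (0.226) and 0.42 ± 0.11 averaged (0.0135), and the averaged rise passed in 21 of 23 alternatives. It missed the threshold when either of the pairs of libraries named above was left out. Of the 50-base stretches of Dnaja1 30.6% also occur in other annotated genes, so its level depends on how such reads were counted. Dnajb1 (Entrez gene 81489, chr8:83608175-83612653), the class II J protein known as HSP40, had 32.5, 28.6 and 36.0 CPM in WT chow and 38.5, 38.8 and 45.7 in WT HFD. For meKO the values were 34.7, 37 and 40.3 CPM on chow and 40.8, 38.1 and 44.6 on HFD. The groups were apart in WT and overlapped in meKO. Its averaged log2 fold change of 0.24 ± 0.08 passed narrowly (edgeR adjusted p = 0.0455) and held in 9 of 23 alternatives, with adjusted p from 0.00397 to 0.312. Leaving out any 1 library other than WT chow replicate 3 took it past the threshold (0.0528 to 0.127).

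The mitochondrial pair showed no rise that passed. Hspd1 (Entrez gene 15510, chr1:55077833-55088243), the HSP60 chamber, had 99.2, 90.1 and 107 CPM in WT chow and 90.1, 95.1 and 118 in WT HFD. For meKO the values were 103, 103 and 106 CPM on chow and 96.8, 127 and 130 on HFD. These groups overlapped, with an averaged log2 fold change of 0.11 and a 95% interval from -0.09 to 0.31 (edgeR adjusted p = 0.402). Hspe1 (Entrez gene 15528, chr1:55088148-55091317), the HSP10 lid, had 30.6, 33.9 and 46.2 CPM in WT chow and 42.8, 39.0 and 54.4 in WT HFD. In meKO it had 45.2, 42.3 and 41.0 CPM on chow and 40.5, 66.5 and 54.2 on HFD. The averaged log2 fold change was 0.31 ± 0.13 (edgeR adjusted p = 0.0898), and the diet groups overlapped in both genotypes. Hspe1 has the shortest transcript of the set, 774 bases. With a correction for transcript length and GC content its averaged value went to -0.05 (edgeR adjusted p = 0.62), a change of sign that the other 9 genes did not show in that contrast under that correction. The ratio of Hspe1 to Hspd1 counts was 0.308, 0.376 and 0.431 in WT chow and 0.386 to 0.524 in the other 3 groups. Of the 50-base stretches 44.8% for Hspd1 and 36.1% for Hspe1 also occur in other annotated genes. Their levels and ratio therefore depend on how such reads were counted.

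**Figure D3:**
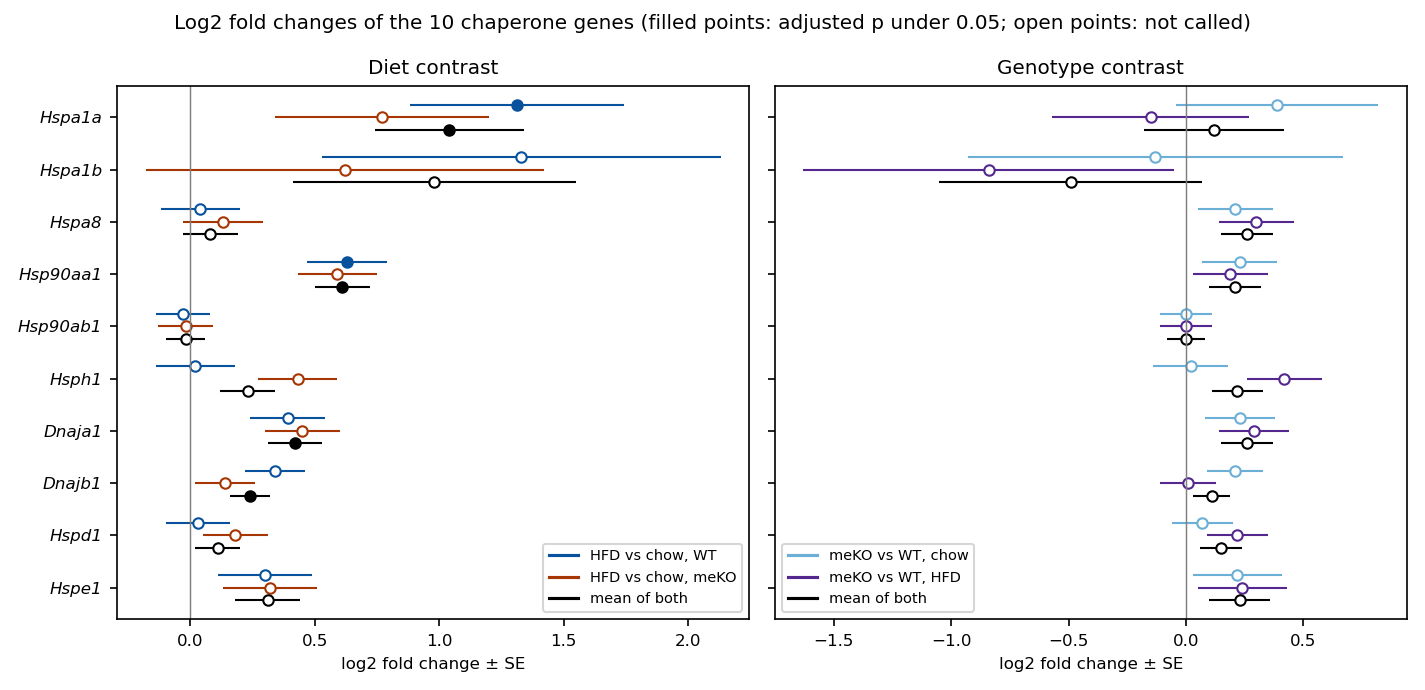
Log2 fold change ± SE (x axis) of each chaperone gene from the edgeR fit to 12 libraries, for diet (left) and genotype (right); filled points have an adjusted p under 0.05. In the diet panel Hspa1a and Hsp90aa1 are filled in WT and averaged, Dnaja1 and Dnajb1 only averaged; in the genotype panel no point is filled.

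Within WT alone, 2 of the 10 genes were called higher on HFD (Hspa1a and Hsp90aa1) and 0 lower, against 9.5% of all genes called higher and 11.8% lower. The groups did not overlap, with HFD higher, for 5 of the 10 (Hspa1a, Hspa1b, Hsp90aa1, Dnaja1 and Dnajb1), against 19.4% of all genes. The count of calls was 4 with DESeq2 (27.9% of all genes), which added Dnaja1 and Dnajb1. It was 0 without WT chow replicate 1, without WT chow replicate 2 or without WT HFD replicate 3, where 1.05%, 2.59% and 0.778% of all genes were called, and 4 without WT chow replicate 3 (39.9% of all genes). Within meKO 0 of 10 passed, against 0.105% of all genes (13 genes). Unadjusted, 3 members had p under 0.05 in meKO (Hsp90aa1, Hsph1 and Dnaja1), against 15.9% of all genes. In these 3 every HFD library was above every chow library, against 10.3% of all genes. DESeq2 called Hsp90aa1 alone of the members in meKO (1.83% of all genes), and voom with library quality weights called Hsp90aa1, Dnaja1 and Hsph1 (3.23%).

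The fewer calls in meKO do not show a different diet effect. The interaction, which tests that difference, gave 0 of 10 genes by edgeR and 0 by DESeq2, with 0 members at an unadjusted p under 0.05 (6.13% of all genes). In all 2 genes, 0.0162%, were called. Its estimates were -0.54 ± 0.60 for Hspa1a and -0.71 ± 1.12 for Hspa1b. For Hsp90aa1 the estimate was -0.03 ± 0.22, for Dnaja1 0.05 ± 0.21 and for Dnajb1 -0.20 ± 0.17.

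The genotype comparison asked whether loss of the kinase altered these chaperones. No member passed on chow, on HFD or averaged over diets by edgeR or by DESeq2, where edgeR called 0.081%, 0.081% and 0.17% of all genes. Unadjusted p under 0.05 was reached by 0 members on chow (19.8% of all genes), by Hsph1 on HFD (0.42 ± 0.16, adjusted p = 0.94; 4.56% of all genes) and by 2 members averaged over diets (17.7% of all genes). These were Hspa8 at 0.26 ± 0.11 (edgeR adjusted p = 0.267) and Dnaja1 at 0.26 ± 0.11 (0.234). Hspa8 had a mean of 454 ± 80.2 CPM over the WT libraries and 543 ± 53.6 over the meKO libraries (SD, n = 6), and Dnaja1 53.9 ± 11.6 and 64.7 ± 12.4 CPM, with overlapping ranges for both. Hsp90ab1 had a log2 fold change of 0.00 averaged over diets, with a 95% interval from -0.17 to 0.17. For Hspa1b the interval ran from -1.76 to 0.79, wide enough to hold changes of either sign. Voom with library quality weights, which lowers the weight of libraries that depart from their group, called 5 members higher in meKO averaged over diets (Hspd1, Hspe1, Hsp90aa1, Dnaja1 and Hspa8), where it called 31.1% of all genes. On chow every meKO library stood above every WT library for 1 member, Dnaja1, against 8.87% of all genes, and on HFD for 0 members, against 5.45%.

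The genes varied among themselves in how closely they followed the set. Over the 12 libraries, Pearson's r between a gene's log2 CPM and the mean standardised log2 CPM of the 10 was 0.935 for Dnaja1, 0.859 for Hsp90aa1 and 0.819 for Dnajb1. It was lowest for Hsp90ab1 (0.363) and Hspa1b (0.409). Each member is part of that mean, which raises its own r. Libraries differed in which members peaked. WT HFD replicate 3 was the highest library for Hspa1a, Hspa1b, Hsp90aa1 and Dnajb1, and for 6.36% of all genes. The library meKO HFD replicate 3 was the highest for Hspa8, Hsph1, Dnaja1 and Hspd1, and for 7.57% of all genes. WT chow replicate 2 was the lowest for 3 members (Hspa8, Dnaja1 and Dnajb1) and for 13.4% of all genes. Among 7720 other genes with at least 10 CPM, the 5 most like the mean of the set were Tubb6 (r = 0.953), Farsa (0.931), Btbd10 (0.917), Sms-ps (0.914) and Uchl5 (0.911). These r values describe the 12 libraries after scaling for depth. Genes share the 4 groups there, and the libraries also differed in the trend with transcript length given above. Tubb6, a beta tubulin, averaged 138 ± 8.18 CPM on chow and 180 ± 30.2 on HFD in WT, and 158 ± 21.8 and 213 ± 19.4 in meKO (SD, n = 3).

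The wider chaperone network was described by lists of genes chosen by function. Hsf1, the factor that switches on heat shock genes, had 12.8 ± 0.987 CPM on chow and 13.8 ± 1.54 CPM on HFD (SD, n = 6), an averaged log2 fold change of 0.10 ± 0.09 (edgeR adjusted p = 0.42). Of the 5 measured heat shock factors and their binding proteins, 2 rose on HFD averaged over genotypes and 0 fell, against 14.9% and 15.3% of all genes. Hsbp1, which binds HSF1, rose by 0.32 ± 0.09 (adjusted p = 0.0227), and Hikeshi, which carries HSP70 into the nucleus, by 0.37 ± 0.09 (0.0128). The rise of Hsbp1 was lost with a correction for transcript length and GC content (0.02, edgeR adjusted p = 0.824) as well as on leaving out any 1 of WT chow replicates 1 and 2, WT HFD replicate 3, meKO chow replicate 3 and meKO HFD replicate 2 (0.0552 to 0.0627). Of 7 other HSP70 and HSP110 family genes 0 passed in the averaged contrast (3 at an unadjusted p under 0.05, against 43.7% of all genes), and in WT Hspa14 rose by 0.32 ± 0.11 (edgeR adjusted p = 0.0464), a call that the length and GC correction ended (0.09, adjusted p = 0.414), as did leaving out any 1 WT library other than WT chow replicate 3 or any 1 meKO library other than HFD replicates 1 and 2 (0.0533 to 0.184).

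The cochaperones that serve HSP70 and HSP90 had 10 of 26 genes higher and 2 lower (Bag4 and Bag6) on HFD averaged over genotypes. The shares of all genes in this contrast were 14.9% higher and 15.3% lower. Ahsa1, the activator of the HSP90 ATPase, rose from 89.9 ± 12.1 to 116 ± 11 CPM (SD, n = 6), by 0.37 ± 0.08 (edgeR adjusted p = 0.00867). Ppid, an HSP90-bound cyclophilin, rose by 0.42 ± 0.09 (0.00974) and Bag1, an HSP70 exchange factor, by 0.37 ± 0.09 (0.01). Bag6, 1 of the lower genes, had a log2 fold change of -0.67 ± 0.18 within WT (edgeR adjusted p = 0.024). It ranged from -0.81 to -0.32 over the alternatives, and the call held in 19 of 24. WT chow replicates 1 and 2 had 83 and 81.9 CPM of Bag6 and replicate 3 had 58.5, against 37.8 to 55.7 in WT HFD. For Ppid and Bag1 the 6 HFD libraries were wholly above the 6 chow libraries, as for 2.99% of all genes, though with the length and GC correction their values dropped to 0.17 and 0.12 and missed the threshold (edgeR adjusted p = 0.0692 and 0.0691). A list of other J proteins holds proteins of the cytosol and of the ER membrane. Of these 1 of 16 was higher (Dnajc21) and 4 were lower (Dnajb12, Dnajc5, Dnajc13 and Sec63), against 14.9% and 15.3% of all genes. Among the lower genes Sec63 had a log2 fold change of -0.37 ± 0.08 (edgeR adjusted p = 0.00873) and Dnajb12 of -0.53 ± 0.13 (0.0123), both of the ER membrane.

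The cytosolic chaperonin TRiC, which folds actin and tubulin, and its helper prefoldin had 10 of 16 genes higher and 0 lower. The shares of all genes were 14.9% higher and 15.3% lower. The list had a median log2 fold change of 0.29, against -0.03 over all genes. Cct6a, a TRiC subunit, rose from 105 ± 9.6 to 137 ± 15.2 CPM (SD, n = 6), by 0.39 ± 0.09 (edgeR adjusted p = 0.00911), and Pfdn1, a prefoldin subunit, by 0.49 ± 0.11 (0.00976). After the length and GC correction 7 of the 16 passed, against 23.5% of all genes. In the mitochondria, 3 of 18 further chaperones and proteases were higher and 0 lower, a share near that of all genes. Grpel1, the exchange factor of the mitochondrial HSP70, rose from 46.6 ± 7.57 to 64.4 ± 10.5 CPM, by 0.47 ± 0.11 (edgeR adjusted p = 0.0102). With the length and GC correction this list had 2 higher and 3 lower, where 23.5% of all genes were called. In the ER, 6 of 17 chaperones were higher and 0 lower, against 14.9% and 15.3% of all genes. Manf, a secreted ER stress protein, rose by 0.67 ± 0.16 (edgeR adjusted p = 0.0111), Creld2 by 0.66 ± 0.17 (0.0136) and Pdia6, a disulfide isomerase, by 0.48 ± 0.12 (0.0153).

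Small heat shock proteins, which hold unfolded proteins without ATP, had 3 of 5 measured genes higher and 0 lower, all at low levels. The shares of all genes were 14.9% higher and 15.3% lower. Cryab rose from 1.88 ± 0.456 to 5.2 ± 1.78 CPM (SD, n = 6), by 1.46 ± 0.24 (edgeR adjusted p = 0.00415), and was higher in all 6 HFD libraries than in any chow library. Hspb1 (HSP27) rose from 0.669 ± 0.415 to 1.4 ± 0.224 CPM and Hspb8 from 0.301 ± 0.15 to 0.899 ± 0.542 CPM, at adjusted p of 0.0141 and 0.0169. The mesothelial and fibroblast markers given above rose in the same libraries, and their part in these low levels was not tested. Immediate early genes, which mark recent stimulation and also the handling of cells, had 8 of 18 higher and 0 lower, against 14.9% and 15.3% of all genes. Junb rose by 0.43 ± 0.08 (edgeR adjusted p = 0.00622) and Fos by 0.66 ± 0.14 (0.00728). Within WT alone 5 of the 18 were called higher and 2 lower (Jun and Egr2), against 9.5% and 11.8% of all genes. The part of the immediate early genes in the chaperone result was not tested.

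**Figure D4:**
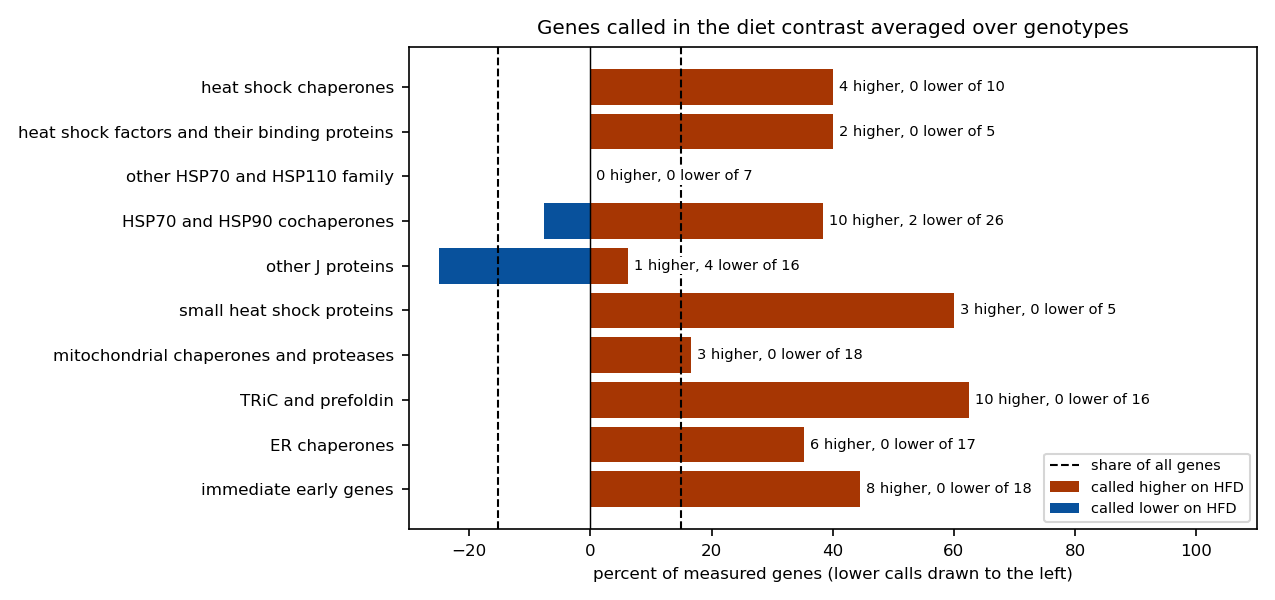
Percent of measured genes called higher (right) or lower (left) on HFD, averaged over genotypes, for the 10 heat shock chaperones and 9 related lists; labels give the counts and dashed lines the shares of all genes, 14.9% higher and 15.3% lower. TRiC and prefoldin (10 of 16) and the small heat shock proteins (3 of 5) have the largest shares of higher calls, and the other J proteins are the list with more lower than higher calls.

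Without WT chow replicates 1 and 2, 1 WT chow library remains, so effect sizes rather than calls are given for the lists in the averaged contrast. These log2 fold changes are given for the list genes, other than Cryab and Fos, that had passed in this contrast and have an adjusted p above for it. They ran from 0.22 (Hsbp1) to 1.5 (Hspb8) among those that had risen, with Junb at 0.42 and Manf at 0.56, and were -0.30 for Sec63 and -0.43 for Dnajb12. Without meKO chow replicate 3 and meKO HFD replicate 2, Cryab, Junb and Fos still passed in that contrast, where 5.19% of all genes were called. The other list genes that had passed in it and have an adjusted p above for it then had adjusted p from 0.0539 (Sec63) to 0.124 (Hsbp1). In the main edgeR fit to all 12 libraries, 0 genes of these 9 lists were called for diet within meKO, for genotype or in the interaction. Other settings did call named list genes. Without WT chow replicate 3, Sec63, Ahsa1, Hspa14, Bag1, Hikeshi and Hsbp1 were called for genotype on chow, with 20.6% of all genes. Without meKO HFD replicate 1, Dnajb12, Creld2, Hspb8 and Cryab were called for diet in meKO, with 1.09% of all genes. Quality weights also called list genes by genotype, with 32.8% of all genes on chow and 31.1% averaged over diets.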

How the data were processed

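Per the labels' protocols, libraries were made from Trizol RNA with the TruSeq protocol. The authors deposited raw counts for each gene in each library, in whole numbers, under Entrez identifiers and symbols; their processing notes name DESeq2 and mm10, and the aligner, counter and strand setting are not given in the sources used here. Columns were matched to samples by title; the labels number no replicates, so replicates were numbered by accession and pair nothing. Counts of 12339 genes were tested with edgeR 4.0.16 (R 4.3.3): TMM factors, filterByExpr (which kept every gene), robust estimation, and quasi-likelihood F tests on 4 group means over 12 libraries, with 7 contrasts. A gene was called where its two-sided p, adjusted over all genes after Benjamini and Hochberg, was under 0.05. SE is the size of the log2 fold change divided by the square root of F, and 95% intervals use the test's own degrees of freedom. Transcript length (93.5% of genes) came from GENCODE M21. With 24 alternatives the diet, genotype and interaction results were recomputed; 2 of them, which leave out pairs of libraries, were added after the data were seen. The code was tested on simulated data. The 10 genes and the lists were chosen with earlier results of these data known. Named besides the 10 were Hsf1, Prkce, Lyz2, up to 3 called genes per list and contrast by smallest p, and the 5 most alike genes; of these the text gives a part, chosen after their values were seen. Of the 10 cell type lists, the B cell, macrophage and mesothelial lists are described with the libraries, as are the neutrophil genes by genotype. Averaged over genotypes, called higher and lower on HFD were 2 and 2 of 10 resident macrophage, 1 and 0 of 11 T and NK cell and 2 and 2 of 7 neutrophil genes. The counts were 0 and 0 of 10 mast cell, 0 and 1 of 4 eosinophil, 0 and 2 of 8 dendritic and 0 and 0 of 3 red blood cell genes. The shares of all genes were 14.9% higher and 15.3% lower.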

Additional observations from a re-analysis of the deposited data

How the results depend on the processing

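The 4 averaged diet calls kept their direction in every alternative. A tally of 1889 recomputed log2 fold changes covered the 10 genes and most other genes with an adjusted p above, but not Prkce, Lyz2 and Bag6. Of these values 1682 kept direction and side of the threshold, 88 lost the call, 27 gained one and 92 changed sign. Among the 1889, 459 belong to genes outside the 10, where 52 lost the call and 0 changed sign. Of the genes left out of the tally, Prkce gained a call by genotype in 3 of 24 alternatives on chow and in 4 of 23 averaged over diets. Lyz2 gained one in 1 of 23 averaged over diets, and Bag6 kept its call for diet in WT in 19 of 24. The number of the 10 genes called for diet in WT was 2 in the report, where 21.3% of all genes were called. It was 1 with library totals (22.2% of all genes), limma-voom (20.4%) or the HSP70 genes summed (21.3%). It was 4 with DESeq2 (27.9%), 6 with quality weights (52%), and 0 to 4 with 1 library left out (0.778% to 39.9%). For diet in meKO (0) it was 1 with DESeq2 (1.83% of all genes) and 3 with quality weights (3.23%). Averaged over genotypes (4, with 30.2% of all genes called) it was 2 to 5 with 1 library left out (15.9% to 43.2% of all genes). For genotype (0) quality weights gave 1 on chow (32.8% of all genes), 1 on HFD (1.04%) and 5 averaged (31.1%). When WT chow replicates 1 and 2 are both left out, the lone WT chow library is assumed to vary like the other groups. The cause of the calls lost in that setting was not tested.

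No value that changed sign passed the threshold after the change (smallest adjusted p 0.283 among the 92), and the largest size in the report among them was 0.71 (Hspa1b, interaction); the cause was not tested. With library totals, diet in WT gave -0.06 for Hspa8, -0.07 for Hsph1 and -0.06 for Hspd1, and genotype gave -0.06 for Hsph1 on chow and -0.01 for Hsp90ab1 and Dnajb1 on HFD. Quality weights gave -0.03 (Hspa8) and -0.14 (Hsph1) for diet in WT, 0.05 (Hsp90ab1) for diet in meKO and 0.00 averaged, -0.10 for Hsph1 by genotype on chow and 0.05 for Hspa1a on HFD. The length and GC correction gave 0.00 (Hspa8), -0.07 (Hspd1) and -0.16 (Hspe1) for diet in WT, -0.05 (Hspe1) averaged, -0.02 (Hspd1) and -0.06 (Hspe1) for genotype on chow, and -0.02 (Hsp90ab1) and -0.01 (Dnajb1) on HFD. Without WT chow replicates 1 and 2, diet in WT gave -0.07 (Hspa8), -0.09 (Hspd1) and -0.03 (Hspe1), and genotype on chow -0.04 (Hspd1) and -0.11 (Hspe1). Without meKO chow replicate 3 and meKO HFD replicate 2, Hsp90ab1 gave 0.00 for diet in meKO, genotype on chow gave 0.35 (Hspa1b) and 0.06 (Hsp90ab1), and Hspa1a on HFD gave 0.20. For Hsp90ab1, genotype on chow was 0.01 with median-of-ratios factors, DESeq2 or at least 10 counts in every library, and 0.00 on HFD with limma-voom. With 1 library left out, values whose sign changed ran, for diet in WT, from -0.13 to 0.16 (Hspa8), -0.07 to 0.02 (Hsp90ab1), -0.09 to 0.20 (Hsph1) and -0.09 to 0.11 (Hspd1). Diet in meKO ran from -0.08 to 0.07 (Hsp90ab1), and averaged from 0.00 to 0.14 (Hspa8) and -0.05 to 0.02 (Hsp90ab1). Genotype on chow ran from -0.88 to 0.34 (Hspa1b), -0.08 to 0.05 (Hsp90ab1) and -0.09 to 0.19 (Hsph1), and on HFD from -0.53 to 0.20 (Hspa1a), -0.05 to 0.08 (Hsp90ab1) and -0.06 to 0.08 (Dnajb1). The interaction ran from -1.28 to 0.04 (Hspa1b), -0.15 to 0.15 (Hsp90aa1) and -0.05 to 0.21 (Dnaja1), and genotype averaged over diets from -0.04 to 0.03 (Hsp90ab1). With all libraries, Hsp90ab1 averaged over diets gave -0.04 with library totals, 0.00 with limma-voom and -0.03 with the length and GC correction, and the interaction of Hsp90aa1 gave 0.02 with library totals and 0.09 with quality weights; without WT chow replicates 1 and 2 these were -0.02 and 0.04. No paired analysis was possible because the labels give no replicate numbers.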
